A study of Mus musculus with 4 samples.

Results

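The comparison described here is the effect of IL-15C that naive and virtual memory CD8 T cells had in common. It used all 4 of the 4 libraries of the study, both IL-15C libraries (naive and virtual memory) on one side and both control libraries on the other, with the cell subset as a block. All mice were of the C57BL/6 strain. The IL-15C mice received IL-15 bound to IL-15Ra, its own receptor chain, 4 times a week, and the controls, which the labels call wild type, were given PBS, the buffer alone. CD8 T cells were enriched from spleen with anti-CD8 microbeads and sorted into naive cells, negative for CD44 and CD49d on the surface, and virtual memory cells, with high CD44 and no CD49d. Each subset of each treatment gave 1 library of poly(A) RNA. The titles give 3 mice per group, and neither whether these were pooled nor whether the naive and virtual memory cells of a treatment came from the same mice is stated.

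IL-15 is held on the surface of a presenting cell by IL-15Ra and signals in the T cell through the beta and common gamma chains of the IL-2 receptor, the kinases JAK1 and JAK3 and the transcription factor STAT5. It maintains memory CD8 T cells and drives their division, and complexes with IL-15Ra act longer and more strongly in mice than the free cytokine. Virtual memory cells are CD8 T cells with a memory surface phenotype in mice that have met no known antigen; they carry much of the beta chain and depend on IL-15, whereas naive cells mostly rest.

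The libraries held 45649628 (IL-15C naive), 45289920 (IL-15C virtual memory), 48950547 (control naive) and 43862816 (control virtual memory) reads assigned to genes, so that 1 read was worth 0.0197 to 0.0233 CPM, a count corrected for library size and, by TMM, for composition. Throughout, pairs of values give naive cells first and virtual memory cells second. The shared response of a gene is the mean of its log2 ratios of IL-15C over control in the 2 subsets, and the value after ± is the distance of either subset ratio from that mean (n = 2). A gene was said to have risen or fallen when edgeR's quasi-likelihood test with the subset as a block gave a Benjamini-Hochberg adjusted p of at most 0.05 over the 12150 genes tested. With 4 libraries and 3 coefficients the fit had 1 residual degree of freedom, the disagreement of the 2 subset ratios, and it borrowed most of its precision across genes. It did not measure the spread between mice, and an exact permutation of the treatment labels within subsets cannot give a two-sided p under 0.5. Coordinates are on GRCm38 (mm10). In sorted bulk samples a change in the cells that make up a library and a change in RNA per cell cannot be told apart.

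With IL-15C, 1434 genes rose, 11.8% of those tested, and 1164 fell, 9.58%. Without the subset block 0 passed (2639 at an unadjusted p under 0.05). The other alternatives named beside a gene all kept the block. By size alone, with the whole 95% counting interval beyond 2-fold in each subset, 499 genes (4.11%) were higher and 122 (1.004%) lower in both subsets, and each of them also passed the test. The subset ratios of the 1434 genes that rose had medians of 0.99 in naive and 1.33 in virtual memory cells, and 70.9% of these genes had the larger ratio in virtual memory cells. Those of the 1164 genes that fell had medians of −0.80 and −1.28, with 78.2% moving further in virtual memory cells and 3 genes that had opposite signs in the subsets. The genes that rose held 10.7% and 17.3% of the reads with IL-15C, against 5.61% and 6.86% in the controls. Over all genes tested, 37.5% had positive and 38.5% negative ratios in both subsets and 23.9% ratios of opposite sign. Pearson's r between the 2 ratios was 0.76 and Spearman's rho 0.70 across genes, which are not independent replicates. The median ratio over all genes was 0.02 in naive and −0.05 in virtual memory cells. When a trend with transcript length was removed, an alternative chosen after seeing the data, only the 10480 genes with a known length were tested. Of these 1080 rose and 540 fell, so that the higher ones made up 66.7% of the calls. Over the 12150 genes without that step they made up 55.2%. Of the calls made without it, 1263 higher and 1010 lower genes had a known length.

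**Figure D1:**
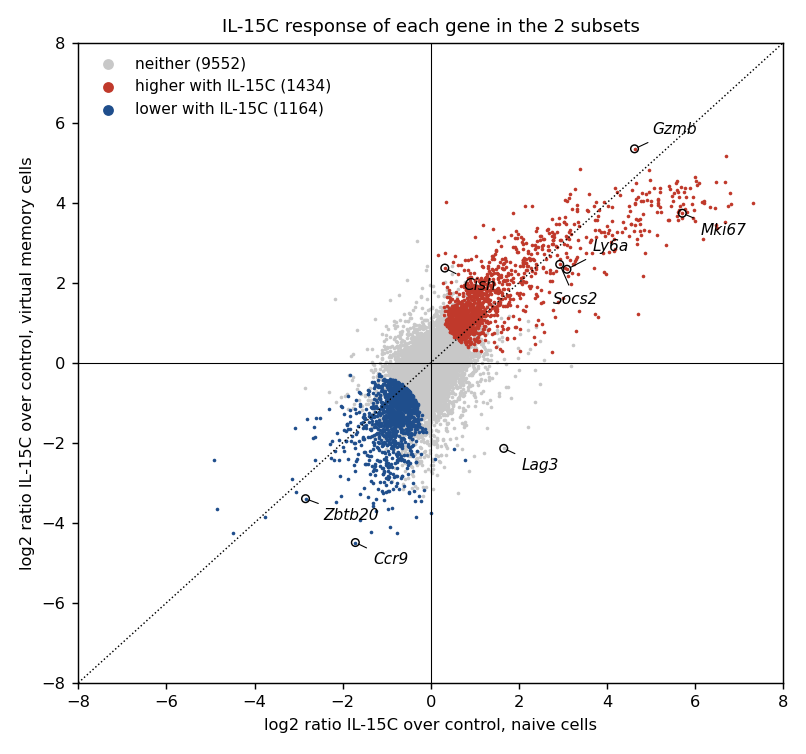
Log2 ratio of IL-15C over control in naive cells (x axis) and virtual memory cells (y axis) for the 12150 genes tested, each a point; red points passed the test as higher (1434), blue points as lower (1164) and grey points did not pass. The dotted diagonal marks equal ratios; the red points with the largest ratios in naive cells, such as Mki67 at 5.71 and 3.74, lie below it, and most blue points lie below it too.

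The sorted cells carried the transcripts of CD8 T cells in all 4 libraries. Cd8a stood at 1602 and 1049.9 CPM with IL-15C, against 1396 and 1168 CPM in the controls, and Cd3e at 526 and 528 CPM with IL-15C, against 538 and 539 CPM in the controls. Of 8 T cell identity genes 0 passed in edgeR's test, 0 had an unadjusted p under 0.05, and DESeq2 and limma-voom also called 0. Cd44, the gene of the gating marker, stood at 17.2 and 243 CPM with IL-15C, against 8.65 and 232 CPM in the controls, which keeps the order of the sort in both treatments. Itga4 (Entrez 16401, chr2:79255426-79333114), which encodes the CD49d chain that all 4 populations were sorted as lacking, stood at 289.6 and 50.9 CPM with IL-15C, against 614 and 351 CPM in the controls, and it fell (mean log2 ratio −1.93 ± 0.85, edgeR adjusted p = 0.00107). Its exons overlap those of Cerkl on the opposite strand.

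Summed markers of dendritic cells, CD4 T cells, macrophages and erythroid cells were highest in the control virtual memory library, and those of B and NK cells in the IL-15C virtual memory library. The 7 dendritic cell genes in the table summed to 9.68 and 94.5 CPM with IL-15C, against 6.09 and 234 CPM in the controls, and of the 5 tested 1 rose, Itgax, and 1 fell, the class II gene H2-Aa, with ratios of 0.09 and −2.40 and so without a fall in naive cells. H2-Aa did not pass with DESeq2 size factors, the older quasi-likelihood method or no filter (adjusted p = 0.0591, 0.0579 and 0.126). The 4 markers of CD4 and regulatory T cells summed to 11.4 and 17.4 CPM with IL-15C, against 16.6 and 74.8 CPM in the controls, with Ikzf2 lower, and Cd4 itself was not analysed here. The 6 B cell genes in the table summed to 563 and 694 CPM with IL-15C, against 487 and 679 CPM in the controls, most of it Ighm, at 542 and 592 CPM with IL-15C, against 466 and 574 CPM in the controls; 3 fell, among them Cd79a and Ighd, and 1 rose, Cd22, a sialic acid receptor at 1.01 and 85.04 CPM with IL-15C, against 0.0590 and 34.9 CPM in the controls. Cd22 did not pass in the DESeq2 Wald test (adjusted p = 0.114), nor Ighd without a filter (edgeR adjusted p = 0.0528). Cd79a, a chain of the B cell receptor, stood at 0.176 and 1.12 CPM with IL-15C, against 0.177 and 15.8 CPM in the controls. In naive cells it was near the level of a few reads on both sides, so its fall rests on the control virtual memory library alone. The B cell genes Ms4a1 and Pax5 and the myeloid genes Adgre1 and Cd14 were not analysed here. The 5 macrophage and granulocyte genes summed to 4.07 and 21.5 CPM with IL-15C, against 5.76 and 27.5 CPM in the controls; of 3 tested, 0 passed in edgeR and in DESeq2, and 1, Mpeg1, was lower in limma-voom and had an unadjusted edgeR p under 0.05. The 6 NK and gamma-delta T cell genes summed to 12.2 and 43.2 CPM with IL-15C, against 6.86 and 29.3 CPM in the controls, with Tcrg-C1 and Klrb1c higher, and the 5 erythroid and platelet genes to 2.22 and 2.17 CPM with IL-15C, against 2.73 and 8.21 CPM in the controls. Klrb1c, with an edgeR adjusted p of 0.0441, did not pass in 5 of the alternatives, among them the DESeq2 Wald test (adjusted p = 0.0672), and Tcrg-C1 did not pass without a filter (edgeR adjusted p = 0.0645). The part of these transcripts in the genes that fell in virtual memory cells was not tested. All 4 Y-linked genes were expressed in each library, and 3 of them fell, Ddx3y (70.04 and 34.6 CPM with IL-15C, against 128 and 122 CPM in the controls), Uty and Kdm5d. Uty and Kdm5d did not pass with the length trend removed (edgeR adjusted p = 0.0756 and 0.326).

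Of 10 genes of the IL-15 receptor and the JAK-STAT chain 1 rose and 0 fell, where 11.8% of all genes tested rose and 9.58% fell, with a median mean log2 ratio of −0.02 beside −0.02 over all genes. The gene that rose was Il2ra (Entrez 16184, chr2:11642792-11693194), the alpha chain that adds high affinity for IL-2, at 3.34 and 46.7 CPM with IL-15C, against 1.24 and 4.55 CPM in the controls (mean log2 ratio 2.37 ± 0.97, edgeR adjusted p = 0.000764). Its highest value, in IL-15C virtual memory cells, stood apart from the other 3, and the IL-15C naive value lay below the control virtual memory one. Il2rb, the signalling beta chain, stood at 309 and 1704 CPM with IL-15C, against 223 and 1175 CPM in the controls, with ratios of 0.47 and 0.54 that did not pass (edgeR adjusted p = 0.185). Il2rg, the common gamma chain, had ratios of 0.27 and 0.04, Jak1 of −0.20 and 0.18, Stat5a of −0.52 and −0.10 and Stat5b of −0.51 and −0.50, and none of these passed.

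Among 21 feedback and target genes of STAT5, 4 rose and 2 fell, with a median of 0.07, counts not far from the 11.8% and 9.58% of all genes. Socs2 (Entrez 216233, chr10:95383903-95417321), an inhibitor of cytokine receptor signalling that STAT5 induces, stood at 1.03 and 4.25 CPM with IL-15C, against 0.0983 and 0.737 CPM in the controls, with ratios of 2.93 and 2.46 (mean 2.69 ± 0.23, edgeR adjusted p = 0.00308). Both IL-15C values lay above both control values, and the control naive value corresponds to a few reads, so that the counting interval in naive cells runs from 2.07 to 5.08. Cish, a feedback inhibitor of the same family, was close in the 2 naive libraries and differed in virtual memory cells, with 11.3 and 34.9 CPM with IL-15C, against 9.06 and 6.74 CPM in the controls and ratios of 0.32 and 2.37 (edgeR adjusted p = 0.0287). Gadd45g, a stress and growth arrest gene, rose by 1.56 ± 0.13, and Pim1, a survival kinase, by 0.70 ± 0.20 on the log2 scale. The 2 members that fell were Dusp6, a phosphatase that switches off ERK, at 17.3 and 15.2 CPM with IL-15C, against 36.3 and 41.00 CPM in the controls (mean log2 ratio −1.24 ± 0.18, edgeR adjusted p = 0.00262), and Ccnd2, the cell cycle driver cyclin D2, with ratios of −0.43 and −1.56. Bcl2, the survival gene downstream of IL-15 in memory cells, had ratios of −0.34 and −0.97 and did not pass (edgeR adjusted p = 0.0544), and Myc, Mcl1, Socs1 and Socs3 did not pass either. The median of the list was −0.19 with the transcript length trend removed, so no direction is given for it. Without a filter on low counts Cish and Ccnd2 did not pass (edgeR adjusted p = 0.0999 and 0.0724), nor did Ccnd2 with the length trend removed.

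Mitosis and DNA replication genes had the highest median ratios of the lists examined. Of the 12 genes with the highest mean ratios among those named by rule, all but Neurl1b and Mxd3 are known for roles in mitosis. Neurl1b (Entrez 240055, chr17:26414859-26446321), a ubiquitin ligase that acts on Notch ligands, stood at 8.62 and 33.7 CPM with IL-15C, against 0.0393 and 0.893 CPM in the controls, with a mean log2 ratio of 5.94 ± 0.77 (edgeR adjusted p = 2.13e-07). The control naive value is 2 reads, and the counting interval of the naive ratio runs from 5.91 to 10.83. Mxd3, a MAX-binding repressor, had ratios of 6.68 and 4.53. Exons of Mxd3, Ccna2, Nusap1 and Kif4 overlap those of Prelid1, Exosc9, Oip5 and Pdzd11, respectively, on the opposite strand. Pbk, a mitotic kinase, had the next largest mean after Neurl1b, 5.65 ± 1.65. Ccna2 (Entrez 12428, chr3:36564865-36573038), cyclin A2, stood at 128 CPM in IL-15C naive and 452 CPM in IL-15C virtual memory cells, against 1.12 CPM in control naive and 23.8 CPM in control virtual memory cells (mean log2 ratio 5.51 ± 1.27, edgeR adjusted p = 1.38e-06). The other 8 were Pimreg (5.49), the kinesins Kif15 (5.39), Kif2c (5.32) and Kif4 (5.12), the spindle protein gene Nusap1 (5.33), Birc5, which encodes survivin of the chromosomal passenger complex (5.30), Ccnb2, cyclin B2 (5.28), and the kinetochore gene Ska1 (5.16). In all 12 the IL-15C naive value exceeded the control virtual memory value, so the groups did not overlap. These genes were chosen by the size of their ratios in the same libraries, so the separation is no separate evidence. The share of all genes without overlap was not counted.

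**Figure D2:**
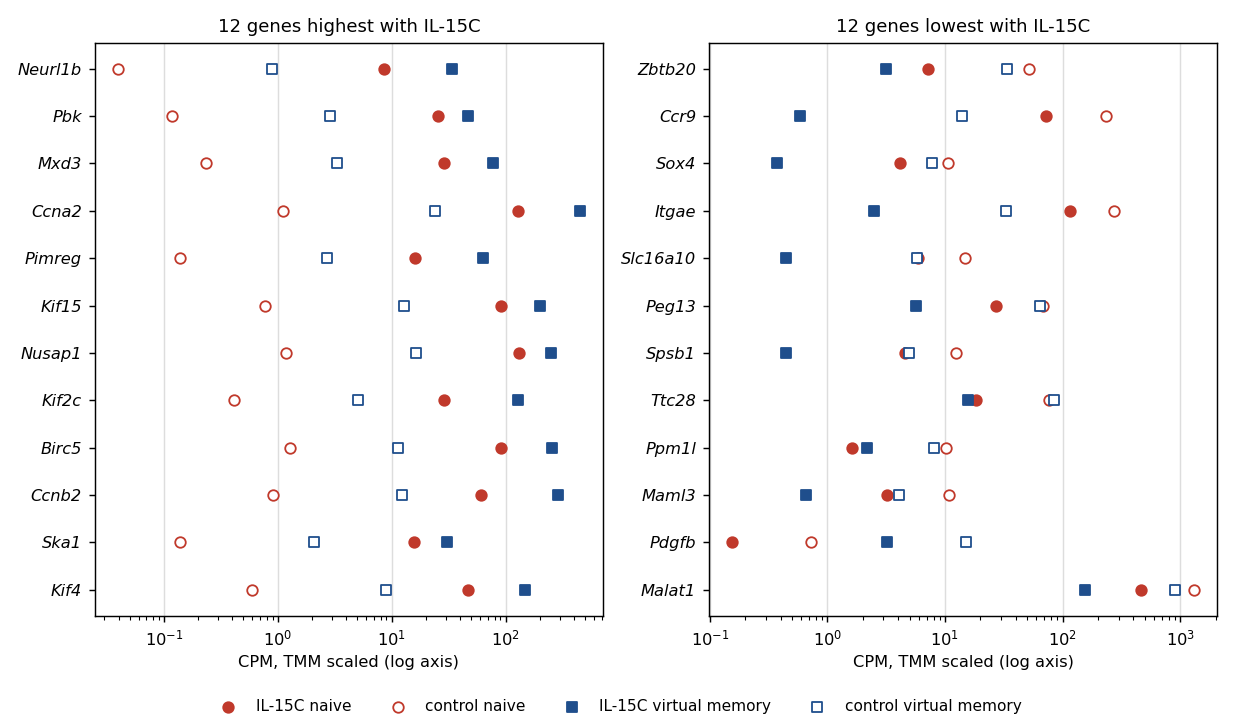
CPM after TMM scaling (log axis) of the 12 genes with the highest (left) and the 12 with the lowest (right) mean log2 ratio among the named genes, with 1 point per library; filled symbols are IL-15C, open symbols control, circles naive and squares virtual memory cells. On the left both filled symbols lie to the right of both open ones for each gene; on the right each filled symbol lies to the left of the open symbol of its own subset, and the groups overlap for Ccr9, Itgae, Slc16a10 and Pdgfb, as in Ccr9, where IL-15C naive cells held 71.7 CPM and control virtual memory cells 14.1 CPM.

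Of 30 mitosis genes 30 rose and 0 fell, with a median mean log2 ratio of 4.80, and each was at least 2-fold higher in both subsets. Mki67 (Entrez 17345, chr7:135689784-135716450), which encodes the proliferation antigen Ki-67, stood at 432 CPM in IL-15C naive and 1566 CPM in IL-15C virtual memory cells, against 8.22 CPM in control naive and 117 CPM in control virtual memory cells (mean log2 ratio 4.72 ± 0.99, edgeR adjusted p = 1.58e-06). Both IL-15C libraries were above both control libraries, and within each treatment virtual memory cells held more than naive cells. The ratio was larger in naive cells for 26 of the 30 genes, with list medians of 5.58 in naive and 4.08 in virtual memory cells, while the IL-15C level was higher in virtual memory cells for genes such as Top2a, the topoisomerase that untangles chromosomes, at 665 and 1499 CPM with IL-15C, against 13.4 and 106 CPM in the controls. Cenpa, the centromeric histone, was among the 4 exceptions, with ratios of 1.87 and 3.75.

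Of 30 DNA replication genes 30 also rose and 0 fell, with a median of 2.32. The licensing factor Cdc6 stood at 54.9 and 97.6 CPM with IL-15C, against 1.08 and 8.15 CPM in the controls (mean log2 ratio 4.59 ± 1.02, edgeR adjusted p = 1.61e-06), and the checkpoint gene Clspn, Mcm10 and the origin subunit Orc1 followed with means of 4.55, 4.48 and 4.17. The 6 subunits of the MCM helicase, which every cell loads at origins before replication, moved less and in close step, between 1.59 for Mcm2 and 2.50 for Mcm5. Pcna, the sliding clamp, stood at 493 and 695 CPM with IL-15C, against 122 and 171 CPM in the controls, with ratios of 2.02 and 2.03. The smallest mean in the list was that of the GINS subunit gene Gins4, 0.99 ± 0.00.

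Among 19 tested of 22 cell cycle regulators, 16 rose and 0 fell, with a median of 1.72. The atypical repressors E2f8 (4.95) and E2f7 (4.69) rose most, beside cyclin E2 (Ccne2, 4.63) and Foxm1, the activator of late cell cycle genes, at 53.1 and 191 CPM with IL-15C, against 4.42 and 13.7 CPM in the controls. The inhibitor gene Cdkn2c, which encodes p18, rose as well, with ratios of 3.35 and 3.52. The G1 kinase genes Cdk4 and Cdk6 rose less, by 0.93 ± 0.08 and 0.85 ± 0.28. The 3 that did not pass were Rb1 (mean 0.64), Cdkn1b, which encodes p27 (−0.37), and the quiescence pocket protein gene Rbl2 (−0.39). Foxm1 overlaps exons of Tex52 and of a predicted gene on the same strand, and E2f7, E2f8 and Ccne2 overlap genes on the opposite strand.

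Genes that supply replication rose with it. Of 22 genes of nucleotide and one-carbon synthesis, 15 rose and 0 fell, with a median of 1.07. Rrm2, the regulated subunit of ribonucleotide reductase, stood at 207 and 470.0 CPM with IL-15C, against 3.24 and 33.3 CPM in the controls (mean log2 ratio 4.90 ± 1.08, edgeR adjusted p = 1.17e-06), and thymidine kinase Tk1 and thymidylate synthase Tyms had means of 4.63 and 3.57. The serine pathway genes Psat1 and Phgdh rose by 1.81 ± 0.29 and 1.03 ± 0.28, while Gart, Atic and Cad of purine and pyrimidine synthesis did not pass. Of 15 genes that copy or silence chromatin 8 rose and 2 fell, where 11.8% of all genes tested rose and 9.58% fell. The histone chaperone Asf1b had nearly the same ratio in each subset, 4.03 and 3.91, and Chaf1a, Uhrf1 and Hells had means of 3.75, 3.67 and 2.73. Ezh2, the catalytic subunit of Polycomb complex PRC2, rose by 2.61 ± 0.01, whereas its partners Eed and Suz12 had means of 0.58 and 0.53 and did not pass. The members that fell were Tet1 and Tet3, which oxidise methylated cytosine, though Tet3 did not pass with the length trend removed (edgeR adjusted p = 0.525), Tet1 standing at 17.7 and 5.39 CPM with IL-15C, against 49.99 and 25.5 CPM in the controls.

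The promoters of genes that rose together are shown because late cell cycle genes are known to carry the CHR element, S phase genes E2F sites, and both often CCAAT boxes bound by NF-Y. The stretches below are the 120 bases upstream of the start given by RefSeq on GRCm38.p6, the assembly also called mm10, written 5′ to 3′ along the gene; for Mki67 and E2f8 the start in that table lies 71 and 477 bases inside the span of the gene, and capitals mark a match on either strand to CHR (TTTGAA), E2F (TTCCCGC or TTGGCGC) or CCAAT. Matches may overlap, as where ATTGG and TTGGCGC share letters in E2f8.
Cdk1, chr10:69352913-69353032, minus strand: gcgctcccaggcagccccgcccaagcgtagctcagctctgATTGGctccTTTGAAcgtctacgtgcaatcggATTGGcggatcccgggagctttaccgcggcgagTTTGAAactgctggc
Kif11, chr19:37376262-37376381, plus strand: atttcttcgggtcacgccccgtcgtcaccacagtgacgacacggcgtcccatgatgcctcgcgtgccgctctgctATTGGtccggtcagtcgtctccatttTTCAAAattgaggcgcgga
Mki67, chr7:135716380-135716499, minus strand: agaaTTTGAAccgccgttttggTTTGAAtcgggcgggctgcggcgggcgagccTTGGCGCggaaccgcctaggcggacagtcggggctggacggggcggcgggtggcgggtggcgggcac
Kif15, chr9:122950961-122951080, plus strand: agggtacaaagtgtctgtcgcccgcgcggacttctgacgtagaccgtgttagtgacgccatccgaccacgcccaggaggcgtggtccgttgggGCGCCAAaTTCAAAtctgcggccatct
Mcm6, chr1:128359706-128359825, minus strand: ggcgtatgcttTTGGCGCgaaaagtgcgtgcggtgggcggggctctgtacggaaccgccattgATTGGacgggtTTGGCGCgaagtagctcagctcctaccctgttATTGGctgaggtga
Mcm3, chr1:20820313-20820432, minus strand: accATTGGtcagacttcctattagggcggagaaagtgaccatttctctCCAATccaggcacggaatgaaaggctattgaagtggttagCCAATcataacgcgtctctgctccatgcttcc
E2f8, chr7:48881597-48881716, minus strand: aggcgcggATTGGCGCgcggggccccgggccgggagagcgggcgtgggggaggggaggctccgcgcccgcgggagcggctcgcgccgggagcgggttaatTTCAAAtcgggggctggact
E2f7, chr10:110745319-110745438, plus strand: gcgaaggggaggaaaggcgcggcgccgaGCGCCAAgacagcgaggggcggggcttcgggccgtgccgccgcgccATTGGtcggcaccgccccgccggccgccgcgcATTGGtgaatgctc
Cdk1, the mitotic kinase, had ratios of 5.88 and 4.36, and Kif11, a spindle kinesin, of 5.78 and 3.84. Mcm6 and Mcm3 of the MCM helicase had ratios of 1.86 and 2.01 and 2.101 and 2.41.

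Over the 250 bases upstream of the start, CCAAT was found in 18 of 25 mitosis promoters (72%) and 17 of 24 replication promoters (70.8%), beside 37.8% of the 9032 promoters of tested genes that the RefSeq table held and 34.5% of all 27025. Either E2F motif was found in 9 replication promoters (37.5%) and 4 mitosis promoters (16%), beside 10.5% among tested genes. CHR was found in 7 mitosis promoters (28%) and 4 replication promoters (16.7%), beside 11% among tested genes and 16.3% of all promoters. Among all genes that rose the shares were 45.7% for CCAAT, 15.6% for E2F and 15.6% for CHR, and among those that fell 32.2%, 8.37% and 9.62%. Such a match is a run of letters in this window and does not show that a factor was bound.

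Cytotoxic genes split, with a few large rises. Of 16 genes tested 4 rose and 0 fell, with a median mean log2 ratio of 0.33. Over all genes tested 11.8% rose and 9.58% fell. Gzmb (Entrez 14939, chr14:56258836-56262334), which encodes granzyme B, the protease that triggers apoptosis in target cells, stood at 37.9 CPM in IL-15C naive and 495 CPM in IL-15C virtual memory cells, against 1.49 CPM in control naive and 12.1 CPM in control virtual memory cells (mean log2 ratio 4.99 ± 0.36, edgeR adjusted p = 8.71e-08). Both IL-15C values lay above both control values. Gzma, granzyme A, followed with 8.05 and 180.3 CPM with IL-15C, against 0.629 and 9.71 CPM in the controls (mean 3.90 ± 0.31, edgeR adjusted p = 1.4e-07), and here the IL-15C naive value lay below the control virtual memory value. Gzmm rose by 1.62 ± 0.14 and Serpinb6b, a granzyme inhibitor, by 1.12 ± 0.76, though Serpinb6b did not pass without a filter (edgeR adjusted p = 0.0635). Per transcript length, Gzmb stood at 42.4 and 564 TPM with IL-15C, against 1.97 and 15.3 TPM in the controls, and Gzma at 15.4 and 353 TPM with IL-15C, against 1.38 and 21.1 TPM in the controls. Prf1, the pore protein perforin that lets granzymes in, had negative ratios in both subsets, −0.94 and −0.33 (edgeR adjusted p = 0.0512). Ifng had ratios of 1.72 and −0.02, Fasl of −0.23 and 1.66 and Nkg7 of 0.53 and 0.28, and none of them passed.

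Of 7 Ly6 family genes tested, from 10 listed, 4 rose and 1 fell, with a median of 1.01. Over all genes tested 11.8% rose and 9.58% fell. Ly6a (Entrez 110454, chr15:74994877-74998031), which encodes the surface protein Sca-1, stood at 174 and 129 CPM with IL-15C, against 20.4 and 25.6 CPM in the controls (mean log2 ratio 2.71 ± 0.38, edgeR adjusted p = 1.51e-06). The IL-15C naive level exceeded the IL-15C virtual memory level, while the controls were close to each other. Ly6e had nearly equal ratios of 1.01 and 0.999. Ly6c1 and Ly6c2, which encode Ly6C, had ratios of 1.94 and 0.89 and 1.91 and 0.89; they are near-identical, so that the counting may have divided their reads. Lynx1 fell, at 1.85 and 0.583 CPM with IL-15C, against 4.05 and 2.61 CPM in the controls. Ly6e and Lynx1 did not pass without a filter (edgeR adjusted p = 0.0653 and 0.0607). All 7 genes had the larger ratio in naive cells.

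Transcription factors and receptors of memory and effector cells moved in both directions. Of 18 factors 5 rose and 3 fell, where 11.8% of all genes tested rose and 9.58% fell. Bhlhe40 (1.61 and 2.37) had the larger ratio in virtual memory cells, whereas Irf8 (1.002 and 0.76), the T-box genes Tbx21 (2.35 and 0.64) and Eomes (1.44 and 0.74) and the repressor gene Zbtb32 (2.52 and 0.96) had the larger ratios in naive cells. Those that fell were Rora (−1.30 and −2.71), Ikzf2, which encodes Helios (−0.97 and −2.21), and Tox, linked to exhaustion (−0.86 and −1.64). Among 18 chemokine and trafficking genes 3 rose and 4 fell, beside the same shares over all genes. The inflammatory chemokine receptor gene Ccr2 stood at 2.49 and 211 CPM with IL-15C, against 0.118 and 45.3 CPM in the controls, with a mean log2 ratio of 3.10, and the level in IL-15C naive cells stayed far below that of control virtual memory cells. Cxcr3 had ratios of 1.62 and 0.30. Cxcr6, Itga4, Itgae and Ccr9 fell. Of 12 inhibitory and co-stimulatory receptor genes tested, from 15 listed, 2 rose, Entpd1, which encodes the ectonucleotidase CD39 (1.35 and 2.24), and Tigit (1.07 and 1.02), and 1 fell, Cd200 (−0.46 and −2.50), counts near the 11.8% and 9.58% of all genes. Cd200 did not pass with DESeq2 size factors, the DESeq2 Wald test, the older quasi-likelihood method or no filter (adjusted p from 0.054 to 0.123), and Tigit did not pass with the length trend removed (edgeR adjusted p = 0.139) or without a filter (0.052). Zbtb32 and Cxcr3 did not pass without a filter or with the length trend removed, nor Itgae in the DESeq2 Wald test (adjusted p = 0.0717).

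Metabolic and protein turnover genes rose by less, and fewer of them passed with the length trend removed. Over all genes tested 11.8% rose and 9.58% fell in the main test. With that trend removed 1080 of 10480 genes rose and 540 fell. Of 21 genes of oxidative phosphorylation 14 rose and 0 fell in edgeR's test, and 7 rose with the transcript length trend removed. The median was 0.79, all 21 had positive ratios in both subsets, and all 21 had the larger one in virtual memory cells. Cox5a, a subunit of cytochrome c oxidase, stood at 97.6 and 148 CPM with IL-15C, against 48.9 and 63.6 CPM in the controls (mean log2 ratio 1.11 ± 0.11, edgeR adjusted p = 0.0018), with Cox5b (1.11), Cox7a2 (1.10) and the complex II subunit Sdhb (1.02) close to it; Cox7a2 did not pass with the length trend removed. Of 17 glycolysis genes 8 rose and 0 fell, and 4 rose with the length trend removed and 4 without a filter. Tpi1 (1.38), Gapdh (1.32), Pgk1 (1.17) and Ldha (0.92) led, of which Ldha did not pass with the length trend removed or without a filter, and the glucose transporter gene Slc2a1 had ratios of −0.02 and 0.22 and did not pass. Of 14 core proteasome genes 12 rose and 0 fell, and 4 rose with the length trend removed; Psmb2 had ratios of 0.95 and 1.30 and Psmb7 of 0.95 and 1.22. Of 16 genes of MHC class I and peptide loading 4 rose, Psmb9, Psmb8, Psme2 and Pdia3, with means between 0.73 and 0.94. With the length trend removed 2 rose, Psmb9 and Pdia3. Over all genes tested 11.8% rose in the main test. The class I genes H2-K1 and H2-D1 had ratios of 0.24 and 0.06 and 0.03 and 0.12.

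Other growth genes stayed closer to the median. Of 22 ribosome biogenesis genes 0 passed in edgeR, 2 had an unadjusted p under 0.05, and DESeq2 and limma-voom called 0, whereas 3 rose with the length trend removed. Npm1, nucleophosmin, had ratios of 1.10 and 0.26. Of 9 genes of amino acid and iron uptake 0 passed in edgeR and DESeq2, 1 had an unadjusted p under 0.05, and limma-voom called 1; Slc7a5, a leucine transporter chain, stood at 59.7 and 137 CPM with IL-15C, against 55.3 and 57.6 CPM in the controls, and the transferrin receptor gene Tfrc had ratios of 0.22 and 0.16. Of 16 sterol synthesis genes 3 rose, Fdft1 (0.62 and 0.95), Fdps (0.58 and 0.96) and Idi1 (0.65 and 0.88), where 11.8% of all genes tested rose. Of 15 apoptosis genes tested 3 rose, beside the same 11.8% of all genes, among them the mitochondrial pore gene Bak1 (0.39 and 1.30). Without a filter Fdft1, Fdps, Idi1 and Bak1 did not pass (edgeR adjusted p from 0.0541 to 0.0625). Of 16 genes of T cell receptor signalling 0 passed in edgeR, DESeq2 and limma-voom and 1 had an unadjusted p under 0.05, with all 16 within 2-fold in each subset.

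**Figure D3:**
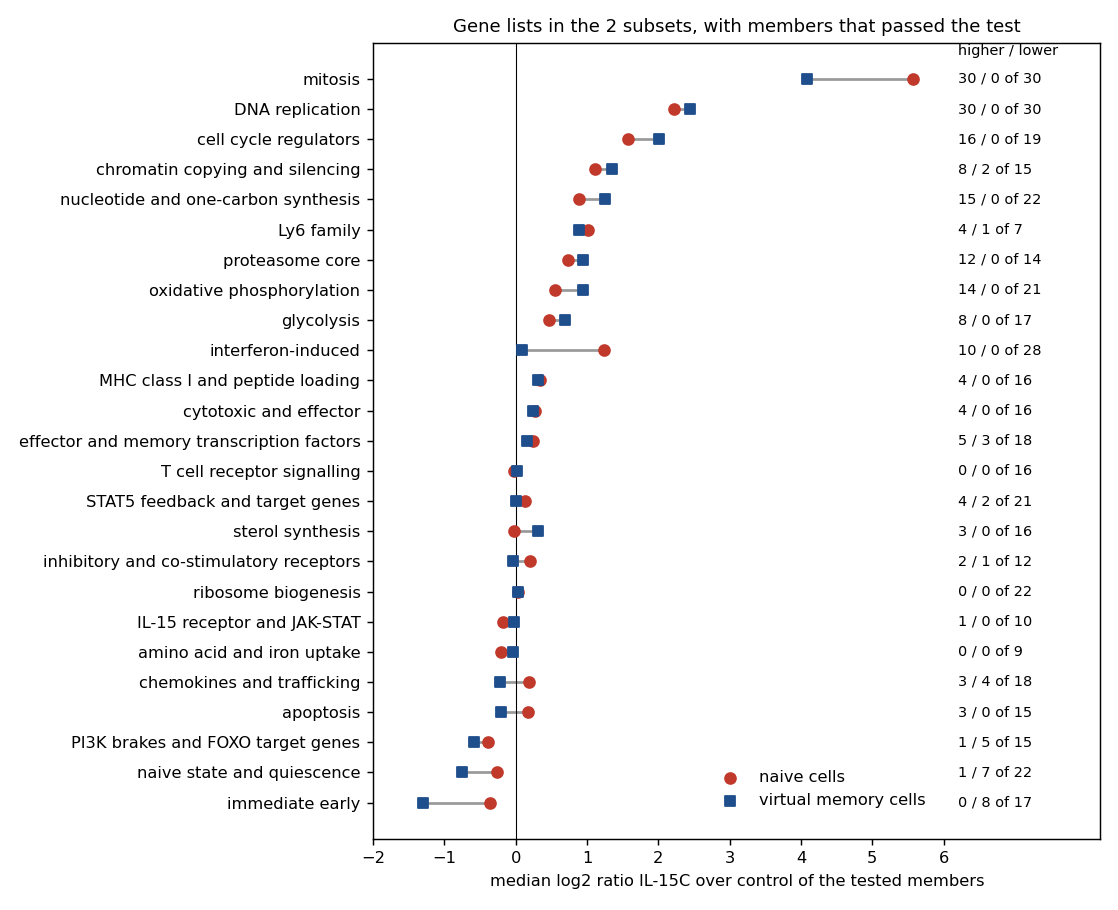
Median log2 ratio of IL-15C over control of the tested members of 25 gene lists, in naive cells (red circles) and virtual memory cells (blue squares), with the number of members that passed the test as higher and lower at the right. Mitosis and DNA replication stand furthest to the right with 30 of 30 higher, and the 2 symbols lie apart for the interferon-induced genes (1.24 and 0.09) and the immediate early genes (−0.37 and −1.30).

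Interferon-induced genes had higher ratios in naive cells. Of 28 genes 10 rose and 0 fell, with a median mean ratio of 0.55 made of 1.24 in naive and 0.09 in virtual memory cells. Over all genes tested 11.8% rose and 9.58% fell. All 28 had the larger ratio in naive cells, 17 were at least 2-fold higher there by their ratio, against 3 in virtual memory cells, and 13 had opposite signs in the subsets. The difference between the subsets could not be tested with 1 library each. Those that rose included Oasl2, an antiviral protein of the OAS family, at 66.6 and 26.2 CPM with IL-15C, against 12.7 and 13.7 CPM in the controls (edgeR adjusted p = 0.00216), Ifi27l2a (1.86 and 1.18), the deubiquitinase-like protease gene Usp18 (1.46 and 1.05) and Isg15, the ubiquitin-like modifier (1.88 and 0.61). With the length trend removed the mean of Isg15 was 0.76 and it did not pass (edgeR adjusted p = 0.0754). Ifit1 stood at 74.9 and 11.8 CPM with IL-15C, against 25.7 and 20.2 CPM in the controls, and Mx1 had ratios of 1.32 and −0.43; neither passed.

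The core of the interferon-stimulated response element, GAAA followed by any 2 bases and GAAA on either strand, was found within 250 bases upstream of the start in 10 of 19 promoters of the list (52.6%), beside 2.76% of those of tested genes and 3.04% of all promoters. The stretches of Isg15, which rose, and Ifit1, which did not pass, are shown with matches in capitals.
Isg15, chr4:156200819-156200938, minus strand: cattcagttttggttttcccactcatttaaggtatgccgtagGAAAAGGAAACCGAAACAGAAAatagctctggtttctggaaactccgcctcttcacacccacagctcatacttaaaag
Ifit1, chr19:34640769-34640888, plus strand: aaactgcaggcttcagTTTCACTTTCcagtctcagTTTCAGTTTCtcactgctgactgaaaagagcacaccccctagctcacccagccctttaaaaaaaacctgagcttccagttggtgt
The STAT motif TTCNNNGAA was found in 3 of 17 promoters of the STAT5 list (17.6%), beside 6% among tested genes and 7.18% of all promoters, and in 5 of 19 promoters of the interferon-induced list (26.3%) and 3 of 24 of the replication list (12.5%).

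The 12 lowest genes named by rule included transcription factors and receptors of tissue homing. Zbtb20 (Entrez 56490, chr16:42875689-43634392), a zinc finger repressor, had the lowest mean and stood at 7.17 CPM in IL-15C naive and 3.13 CPM in IL-15C virtual memory cells, against 51.7 CPM in control naive and 33.4 CPM in control virtual memory cells (mean log2 ratio −3.12 ± 0.28, edgeR adjusted p = 1.51e-06). Both IL-15C values lay below both control values. Ccr9 (Entrez 12769, chr9:123767211-123783457), the gut-homing chemokine receptor gene, stood at 71.7 and 0.583 CPM with IL-15C, against 235 and 14.1 CPM in the controls (mean −3.10 ± 1.39, edgeR adjusted p = 0.000519), and Itgae, which encodes the integrin CD103 of tissue-resident cells, at 115 and 2.50 CPM with IL-15C, against 274 and 32.99 CPM in the controls (mean −2.48 ± 1.22). In both of these the control naive library held most and the IL-15C virtual memory library least, and the IL-15C naive value lay above the control virtual memory value, so the groups overlapped. Ttc28 had similar levels in the subsets, 18.3 and 15.6 CPM with IL-15C, against 77.2 and 84.2 CPM in the controls (mean −2.25 ± 0.18, edgeR adjusted p = 5.43e-06). The other 8 were Sox4 (−2.79), the amino acid transporter gene Slc16a10 (−2.45), the imprinted noncoding RNA Peg13 (−2.41), Spsb1 (−2.40), the phosphatase gene Ppm1l (−2.25), the Notch coactivator gene Maml3 (−2.16), the growth factor gene Pdgfb (−2.09) and the nuclear noncoding RNA Malat1, at 467 and 157 CPM with IL-15C, against 1319.8 and 912 CPM in the controls. Of these, Zbtb20, Ccr9, Sox4, Spsb1 and Malat1 have exons that overlap another gene. The groups also overlapped for Slc16a10 and Pdgfb, and not for the other 8. All 12 were chosen by their ratios in the same libraries, and the share of all genes without overlap was not counted.

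Of 22 genes of the naive state and quiescence 7 fell and 1 rose, with a median mean log2 ratio of −0.58. Over all genes tested 9.58% fell and 11.8% rose. Of the list 5 fell with the length trend removed, 5 with DESeq2 size factors and 3 without a filter. Bach2, a repressor that restrains effector differentiation, stood at 82.3 and 42.9 CPM with IL-15C, against 147 and 100.0 CPM in the controls (edgeR adjusted p = 0.00345). Il7r, the receptor of the other survival cytokine of resting T cells, had ratios of −0.25 and −1.61 (edgeR adjusted p = 0.0396), and Igfbp4 of −0.35 and −2.48, so that both moved mainly in virtual memory cells. Foxo3 (−0.59 and −0.76) and Tsc1 (−0.64 and −0.62), which hold back growth, fell by similar amounts in each subset. Tcf7, the gene of the stem-like factor TCF1, had ratios of 0.04 and −0.06, Lef1 of −0.13 and −0.69 and Klf2 of 0.12 and −0.63, and these did not pass. Dapl1 was the member that rose, with ratios of 0.84 and 0.39 and an edgeR adjusted p of 0.0498; it passed in limma-voom too and in none of the other 6 alternatives with the subset block. Il7r, Igfbp4 and Tsc1 did not pass without a filter, Il7r and Tsc1 with DESeq2 size factors, and Bach2, Foxo3 and Tsc1 with the length trend removed. Of 15 genes that restrain PI3K or are targets of FOXO 5 fell and 1 rose, beside the same shares over all genes. With the length trend removed 2 fell and 2 rose, where 540 fell and 1080 rose of 10480 genes tested. Without a filter 1 of the 15 fell and 0 rose. The leading members were Tsc22d3, the glucocorticoid-induced leucine zipper gene (−0.43 and −1.91), and Pik3ip1, a membrane inhibitor of PI3K (−0.36 and −1.67). The autophagy gene Gabarapl1 rose (0.88 and 1.72). None of these 3 passed without a filter.

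Immediate early genes were mostly lower. Of 17 genes 8 fell and 0 rose, where 9.58% of all genes tested fell and 11.8% rose. The median was −0.79, and 16 had negative ratios in both subsets. Among the alternatives with the block, from 4 (no filter) to 13 (limma-voom) fell. By their ratio 14 were at least 2-fold lower in virtual memory cells, against 2 in naive cells. Fos (Entrez 14281, chr12:85473890-85477274), a subunit of AP-1 that is switched on within minutes of stimulation, stood at 40.04 and 21.8 CPM with IL-15C, against 108 and 127 CPM in the controls (mean log2 ratio −1.99 ± 0.55, edgeR adjusted p = 9.44e-05). Both IL-15C values lay below both control values. Junb stood at 152 and 61.99 CPM with IL-15C, against 286 and 274 CPM in the controls, and Jun at 79.9 and 22.96 CPM with IL-15C, against 125 and 163 CPM in the controls, with the lowest value of each in IL-15C virtual memory cells. The nuclear receptor genes Nr4a1, Nr4a2 and Nr4a3, which report T cell receptor signals, fell with means of −0.91, −1.23 and −1.13, though Nr4a1 did not pass with DESeq2 size factors or without a filter, and Nr4a2 in 4 of the alternatives, among them the DESeq2 Wald test (adjusted p = 0.124). Egr1 had ratios of −0.33 and −0.97 and did not pass (edgeR adjusted p = 0.0627).

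The share of genes that passed differed by gene type and by transcript length. With 1 library per group, an effect of IL-15C on these shares and a difference between libraries cannot be told apart. Of 10520 protein-coding genes tested 12.1% rose and 9.65% fell, of 604 long noncoding RNAs 4.3% rose and 19% fell, and of 709 pseudogenes 18.1% rose and 1.27% fell. The median mean log2 ratios of these types were −0.03, −0.58 and 0.45. The protein-coding genes that rose had a median transcript length of 2543 bases and those that fell one of 5511, beside 3411 over all those tested, while the median GC contents were 49.4%, 48.4% and 49.4%. When these genes were divided by length into 3 equal groups, 19.3% rose and 2.74% fell among the shortest, from 204 to 2662 bases, and 6.35% rose and 20.6% fell among the longest, from 4272 bases. The median ratio among the longest was −0.29 in each subset, and among the shortest it was 0.29 in naive and 0.19 in virtual memory cells. The mitosis and replication lists kept 30 of 30 genes each as higher after removal of the length trend.

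**Figure D4:**
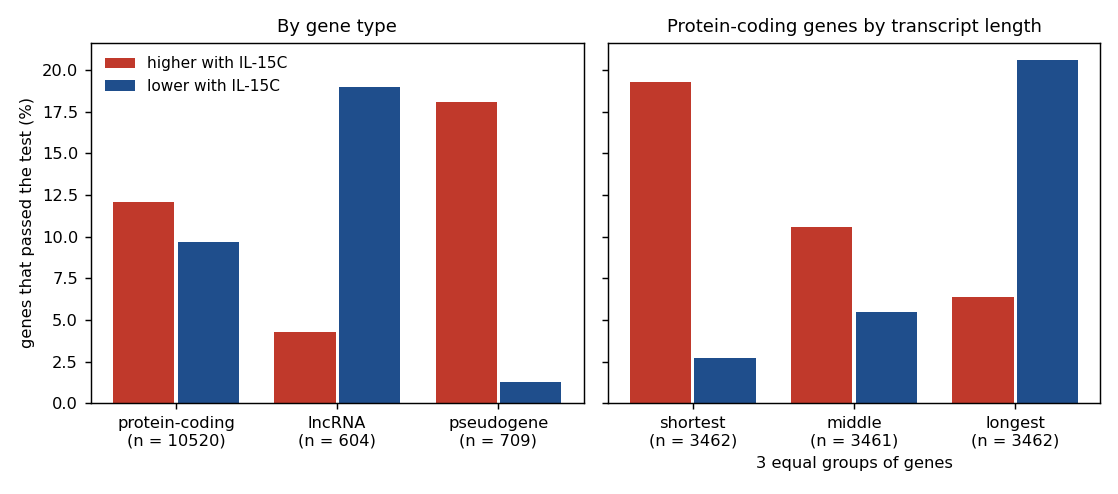
Percentage of tested genes that passed the test as higher (red) or lower (blue) with IL-15C, by gene type (left) and by 3 equal groups of transcript length among protein-coding genes (right), with the number of genes under each pair of bars. The blue bar is the taller one for long noncoding RNAs (19% against 4.3%) and for the longest group (20.6% against 6.35%).

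The authors' deposited table also holds a comparison of IL-15C with control over both subsets, made from the same 4 libraries and so no independent support. At an adjusted p of at most 0.05 the authors' deposited table lists 502 genes, 440 higher and 62 lower. Of these, 454 were among the genes tested here, and all 454 passed here in the same direction. They are 90.4% of the genes called in the authors' deposited table and 17.5% of the 2598 called here.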

How the data were processed

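The authors deposited raw whole-number counts for 15466 genes, keyed by Entrez ID, per the file headers. The authors also deposited TPM values, used here only to set levels of different genes beside each other, and a signed fold change score with an adjusted p-value for IL-15C against control, per the file headers. Another 18 per-sample columns went unused. The submitters' processing notes name the mm10 build, HISAT2 2.1.0 and StringTie 2.1.3b, beside edgeR, SAMtools 1.9, Trimmomatic 0.38 and FastQC 0.11.7. These sources do not say whether strand was used in counting. Columns headed ctrl were taken as the libraries titled wild type. No count in the table is below 1, and genes that lack a read in any library were not analysed here.

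Genes with at least 1 CPM in at least 2 libraries (12150) were fitted in edgeR 4.0.16 (R 4.3.3, TMM scaling, quasi-likelihood test, subset as block, Benjamini-Hochberg over all genes tested). The fit had 1 residual degree of freedom and 13.3 prior degrees of freedom, and p-values measure the disagreement between subsets, not spread between mice, and may be technical. Subset ratios carry a prior count of 2. The 95% intervals are Clopper-Pearson intervals of the 2 counts compared. They reflect counting error alone and may understate it, because without molecular identifiers reads are not independent molecules. The median interval was 0.23 log2 units wide in naive and 0.24 in virtual memory cells. The steps were tested on simulated data. Alternatives were DESeq2 1.42.0, limma-voom (limma 3.58.1), the older quasi-likelihood method, other filters, DESeq2 size factors, another prior count, no block, leaving out each subset, and a transcript length trend, the last chosen after seeing the data.

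The genes named are the 12 highest and 12 lowest mean ratios among genes that passed, differed at least 2-fold in both subsets and reached 10 CPM, leaving out predicted, immunoglobulin, T cell receptor, ribosomal protein, histone, mitochondrial and pseudogenes, with the markers Mki67, Gzmb, Ly6a and Socs2 and leading members of 34 lists. Other members, promoters and list members that did not pass were chosen for the text after their values were seen. A few list members are not reported here by name. The comparison and the lists were chosen with earlier results of these data known. RefSeq on GRCm38.p6 matched 15428 IDs and not 38, and gave coordinates and promoters; GENCODE M21 gave lengths, GC content and overlaps, with 44 of 131 named genes overlapping a gene on the opposite strand.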

Additional observations from a re-analysis of the deposited data

Results flagged for a closer look

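Lag3 and Med12l moved at least 2-fold in opposite directions in the subsets, with the counting interval beyond 2-fold in each, and were the only genes of 12150 to do so. Both were chosen after their values were seen, and the difference between the subsets was not tested, since each has 1 library per treatment. Lag3, an inhibitory receptor gene, stood at 1.52 and 1.73 CPM with IL-15C, against 0.452 and 7.77 CPM in the controls, which gives log2 ratios of 1.66 and −2.14 (counting intervals 1.05 to 2.50 and −2.55 to −1.80). The control virtual memory library stood apart from the other 3. Med12l, a paralog of a Mediator kinase module subunit gene, stood at 0.308 and 9.52 CPM with IL-15C, against 1.55 and 3.12 CPM in the controls, with log2 ratios of −2.18 and 1.59 (counting intervals −3.27 to −1.50 and 1.33 to 1.89), and here the IL-15C virtual memory library stood apart.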

How the results depend on the processing

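The pairing of the libraries by subset decides the test. With no replicate block 0 genes rose and 0 fell in edgeR, 2639 had an unadjusted p under 0.05 and the smallest adjusted p was 0.179, while the DESeq2 Wald test with the block called 1252 higher and 978 lower. Removal of the transcript length trend left 540 lower, among the 10480 genes with a known length. Of the genes called lower without that step, 1010 had a known length. With DESeq2 size factors, limma-voom, the older quasi-likelihood method, no filter and a filter at 5 CPM the counts were within 1.5 times of those reported, from 1199 to 1616 higher and from 792 to 1356 lower. The genes called were less alike than these totals. Of the 2598 called in the main test, 1672 were among the 1991 called without a filter. With the length trend removed, 1358 were among the 1620 called. The other alternatives with the block shared from 2157 to 2593. By size alone, genes at least 2-fold lower in both subsets numbered 73 with the 5 CPM filter and 304 without the interval, and leaving out a subset gave 600 to 983 genes higher and 225 to 1049 lower; no test was possible there, for want of residual degrees of freedom. Of the 112 named genes that passed, 1 changed sign when a subset was left out: H2-Aa, lower over both subsets, had a ratio of 0.0855 without the virtual memory pair and −2.40 without the naive pair. Calls lost among the named genes numbered 112 without the block, 24 without a filter, 14 with the length trend removed, 5 with the DESeq2 Wald test and at most 4 with each other alternative. The counting interval was 0.23 log2 units wide at the median in naive cells. With 1 library per group it does not cover the spread between mice, so small differences cannot be judged from it.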
